A study of Mus musculus with 4 samples.

Results

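The serine- and arginine-rich (SR) splicing factors described here are 10 mouse genes, *Srsf1*, *Srsf2*, *Srsf3*, *Srsf4*, *Srsf5*, *Srsf6*, *Srsf7*, *Srsf11*, *Tra2a* and *Tra2b*, chosen by name with their values in this comparison already known. Their 84 annotated transcripts, of the 116546 transcripts in each file, were grouped by GENCODE biotype into protein coding, retained intron and nonsense-mediated decay (NMD) transcripts, and 68 of the 84 had reads in at least 1 library. The RNA came from the hippocampus of 4-month-old C57BL/6J mice of the P2RY12CreER x Rpl22HA RiboTag line, in which Cre, driven from a microglial gene, tags ribosomes so that they can be pulled down with their RNA. The sleep-deprived mice were fear conditioned and then kept awake for 6 hours. The control mice were fear conditioned too and could sleep for those 6 hours. Each of the 2 samples of a group pooled 2 mice, and the labels call the samples technical replicates. Groups were taken from the sample titles because the treatment label names sleep deprivation for all 4 samples.

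Between the 2 files of each group the genes differed by less than sampling noise, so the files were counted as 1 library. This gives n = 1 per group, no test between the conditions and no p-value. Files held 14473030 and 14431647 estimated reads in the sleep-deprived group and 14877011 and 14833320 in the control group. The 10 genes took 0.830% of the estimated reads in both sleep-deprived files and 0.544% in both control files. Ratios are sleep-deprived over control, from TMM-scaled reads, with the 95% interval of the counting error in brackets. A ratio was called when it was at least 2-fold with an interval that excluded 1, and a share when it differed by at least 10 percentage points with an interval that excluded 0. Rose and fell refer to such calls, which describe these libraries and carry no replicate check. Sequenced reads are not independent molecules, so the intervals cover counting error only.

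SR proteins bind short exonic sequences through RNA recognition motifs and, through a domain rich in arginine and serine, help the U1 and U2 ribonucleoproteins find the ends of introns. Many of them limit their own level. When the protein is abundant its own transcript is spliced to include a poison exon, an exon with an early stop codon that sends the transcript to nonsense-mediated decay, or keeps an intron and stays in the nucleus. A stop codon is read as early when an exon junction lies well downstream of it. The Tra2 proteins are related activators that flank a recognition motif with arginine- and serine-rich domains on both sides.

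In 6 of the genes the most abundant NMD transcript differed from the most abundant protein coding transcript by a whole inserted exon with a stop codon in it. The stretches of 5 are shown because the NMD shares below turn on them, and that of Srsf11-212, which had almost no reads, is left out. Each runs from the first base of the inserted exon through the early stop codon, which is in capitals (GENCODE release 21 transcripts, GRCm38, transcript strand).
Srsf3-201 exon 4, chr17:29039454-29039487, plus strand: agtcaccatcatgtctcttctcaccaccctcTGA
Srsf6-201 exon 3, chr2:162932815-162932966, plus strand: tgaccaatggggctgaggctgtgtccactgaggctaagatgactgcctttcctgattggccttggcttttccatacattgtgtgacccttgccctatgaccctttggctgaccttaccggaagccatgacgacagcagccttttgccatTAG
Srsf7-203 exon 4, chr17:80205054-80205081, minus strand: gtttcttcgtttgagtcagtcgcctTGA
Tra2a-202 exon 2, chr6:49252965-49253108, minus strand: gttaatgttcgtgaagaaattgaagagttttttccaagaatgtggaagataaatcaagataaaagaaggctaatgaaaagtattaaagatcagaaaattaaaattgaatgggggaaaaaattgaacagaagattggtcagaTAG
Tra2b-206 exon 2, chr16:22259181-22259261, minus strand: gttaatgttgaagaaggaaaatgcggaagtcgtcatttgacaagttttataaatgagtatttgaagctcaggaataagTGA

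The inserted exons were 456 bases long in *Srsf3*, 268 in *Srsf6*, 460 in *Srsf7*, 306 in *Tra2a* and 276 in *Tra2b*. Reading stopped after 124 codons in Srsf3-201, where the coding transcript has 164, and after 135 in Srsf6-201, where it has 339. In Srsf7-203 it stopped after 137 codons of a possible 238. The Tra2 exons come early in the message, and the reading frames were 59 codons in Tra2a-202 (282 in the coding transcript) and 38 in Tra2b-206 (288 in the coding transcript). From the stop codon to the last exon junction lay 548 bases in Srsf3-201, 534 in Srsf6-201, 699 in Srsf7-203, 964 in Tra2a-202 and 1015 in Tra2b-206. Srsf1-204 holds no base that the *Srsf1* coding transcript lacks, and its stop codon, after 105 codons, lies 80 bases before the last junction.

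In *Srsf5*, *Srsf6* and *Srsf7* the most abundant retained intron transcript keeps 1 whole intron of the coding part. The ends of these introns are shown because the retained intron reads below rest on them, with 15 bases of exon beside each intron and the GT that opens and the AG that closes the intron in capitals.
Srsf5 intron 5 of 7, donor: agagtcagctggcagGTttgttgaaataca
Srsf5 intron 5 of 7, acceptor: ttgtcttgtgttaAGgatctcaaagatttc
Srsf6 intron 2 of 5, donor: gctacggaagccgcaGTgagtccttacccc
Srsf6 intron 2 of 5, acceptor: cttcatgtgataaAGgtggtggaggtggat
Srsf7 intron 3 of 7, donor: acgaagaagaagcagGTatttaattaatga
Srsf7 intron 3 of 7, acceptor: taacttaaaaaatAGgtcacgatctagatc

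The *Srsf5* intron covers 1229 bases at chr12:80947866-80949094 on the plus strand, the *Srsf6* intron 1283 bases at chr2:162932143-162933425 on the plus strand, and the *Srsf7* intron 874 bases at chr17:80204388-80205261 on the minus strand (GRCm38). The poison exons of *Srsf6* and *Srsf7* lie inside these same introns. In *Srsf3* the poison exon lies inside intron 3, of 2150 bases, which Srsf3-204 keeps together with intron 4, of 393 bases. In *Tra2a* and *Tra2b* the poison exons lie outside the introns that the most abundant retained intron transcript keeps, intron 5 in Tra2a-205 and introns 5 and 6 in Tra2b-208. Tra2b-203, a retained intron transcript with fewer reads, spans the place of the *Tra2b* poison exon and was not examined for it.

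The genes lie at chr11:88047373-88053755 (*Srsf1*), chr11:116849901-116853094 (*Srsf2*), chr17:29032628-29043373 (*Srsf3*), chr4:131873617-131901706 (*Srsf4*) and chr12:80945504-80950507 (*Srsf5*). The others lie at chr2:162931528-162937121 (*Srsf6*), chr17:80200080-80207307 (*Srsf7*), chr3:158010473-158036639 (*Srsf11*), chr6:49243924-49264033 (*Tra2a*) and chr16:22244549-22266005 (*Tra2b*), all in GRCm38. Genes elsewhere in the genome share stretches of sequence with *Srsf3*, *Srsf5*, *Srsf7* and *Tra2b*. How alike they are over their whole length was not measured. Of these other genes *Gm12966*, which shares sequence with *Srsf5*, held the most reads, 6.68 in sleep-deprived and 6.77 in control. Reads moved to or from such genes are uncertain.

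Total transcript level, summed over all classes, was called higher for 2 of the 10 genes, *Srsf5* and *Srsf6*, and lower for none. Over all 14907 measured genes 4.24% were called higher and 5.65% lower. *Srsf5*, which encodes an SR protein with a pair of recognition motifs, had 2929 and 2939 TPM in the sleep-deprived files, against 983 and 987 TPM in the control files. Its ratio of reads was 2.79 [2.74 to 2.84], and it was the most abundant of the 10 genes in the sleep-deprived library, whereas *Srsf1* was in the control library. *Srsf6* had 674 and 678 TPM in sleep-deprived, against 245 and 246 TPM in control files, a ratio of reads of 2.21 [2.15 to 2.28]. For both genes the files of a group lay close together. Because those files were averaged into the same library, their closeness is no yardstick for the gap between groups.

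Among the other classical SR genes, *Srsf7*, whose protein also carries a zinc knuckle, had 425 and 423 TPM in sleep-deprived files and 217 and 214 TPM in control files, a ratio of reads of 1.71 [1.64 to 1.79]. *Srsf2*, which encodes a protein of nuclear speckles, had 816 and 809 TPM in sleep-deprived and 617 and 629 TPM in control files (ratio 1.45 [1.40 to 1.49]). *Srsf3*, the smallest member with a single recognition motif, had 250 and 251 TPM in sleep-deprived and 165 and 167 TPM in control files (ratio 1.33 [1.28 to 1.39]). None of these 3 genes reached 2-fold.

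*Srsf1*, the founding SR protein, had 2114 and 2130 TPM in sleep-deprived files, against 1494 and 1497 TPM in control files, with a ratio of reads of 1.08 [1.06 to 1.10]. *Srsf4*, with the longest coding part of the classical members here (491 codons), had 112 TPM in both sleep-deprived files and 94.8 and 97.2 TPM in the control files. Its ratio of reads, 1.01 [0.94 to 1.08], straddled 1. Of its exon bases 43.0% overlap *Gm12992* on the opposite strand, a gene with no transcript among those counted. Without a stated strand setting reads of the overlap are uncertain. *Srsf11*, an SR-related factor, had 1222 and 1232 TPM in sleep-deprived and 705 and 707 TPM in control files, with a ratio of 1.09 [1.07 to 1.12] in reads and 1.74 in summed TPM. A short transcript of this gene, which counts for more per read in TPM, rose and is described below. *Tra2a* had 460 and 458 TPM in sleep-deprived and 330 and 332 TPM in control files (ratio of reads 1.24 [1.20 to 1.29]), and *Tra2b* had 115 and 117 TPM in sleep-deprived and 103 and 101 TPM in control files (ratio of reads 0.98 [0.92 to 1.05]). The median gene had a TPM ratio of 1.16 and a ratio of scaled reads of 0.994. The TPM ratio was above the read ratio in each of these genes except *Srsf2*, whose TPM ratio was 1.30.

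**Figure D1:**
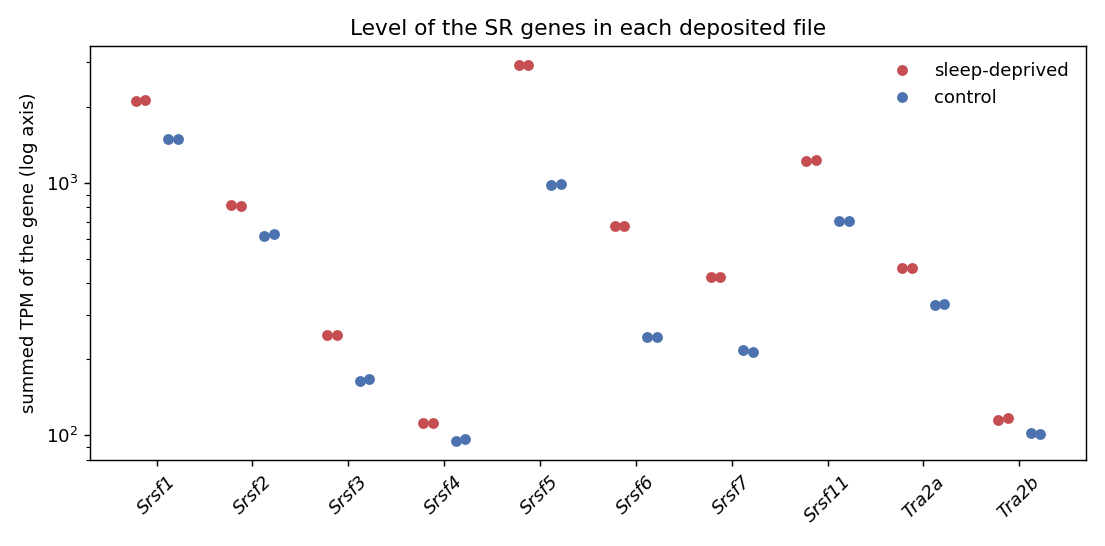
Summed TPM of each SR gene on a log axis, 1 point per deposited file, sleep-deprived left of control. The 2 files of a group nearly coincide, but they were counted as the same library and carry no replicate information. The groups lie farthest apart for Srsf5 and Srsf6. Srsf5 had 2929 and 2939 TPM in sleep-deprived and 983 and 987 TPM in control. Srsf6 had 674 and 678 TPM in sleep-deprived and 245 and 246 TPM in control.

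Retained intron transcripts took a larger share of the reads in the sleep-deprived library in all 10 genes, and the share rose by the call in 5 of them, *Srsf2*, *Srsf3*, *Srsf6*, *Srsf7* and *Srsf11*. It was called lower in none. For *Srsf5* and *Tra2a* the direction turned when transcripts with weaker annotation support levels were left out, as given below. The share was above control in 4040 of all 6592 genes with enough reads and below it in 2242. The same calls covered 10% (higher) and 4.81% (lower) of these genes, and since the 10 genes were chosen with this comparison known, nothing is read from the difference. Summed over the 10 genes, retained intron transcripts held 57472 of 119954 estimated reads in the sleep-deprived library (47.9%) and 26689 of 80816 in control (33.0%). *Srsf5* weighs heavily in that sum, and without it the shares were 33.8% in sleep-deprived and 23.8% in control.

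*Srsf6*, which encodes a close relative of the *Srsf5* protein, had the largest difference of the 10 genes in read share, although as a share of TPM *Srsf11* (20.3 points) and *Srsf2* (19.0 points) were above it (18.6 points). Retained intron reads were 29.4% and 29.6% of its reads in the sleep-deprived files, against 12.1% and 11.9% in the control files, a difference of 17.5 points [16.4 to 18.5]. All of these reads were assigned to Srsf6-204, the transcript that keeps intron 2 shown above, with 221 and 223 TPM in sleep-deprived and 35.1 and 34.7 TPM in control files. Its ratio of reads was 5.43 [5.05 to 5.85], against 1.72 [1.66 to 1.77] for the coding transcript Srsf6-203. Srsf6-204 carries 1069 stretches of 31 bases that no other class of *Srsf6* holds, so reads can place it.

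*Srsf7* had 47.7% and 47.6% retained intron reads in sleep-deprived files and 37.8% and 36.1% in control files, 10.7 points more [8.56 to 12.8]. Its main retained intron transcript, Srsf7-207, rose to 160 and 161 TPM in sleep-deprived files, against 54.3 and 50.5 TPM in control files (ratio of reads 2.62 [2.41 to 2.84]). Srsf7-206, named after its values were seen, keeps the same intron 3 and had 23.8 and 26.2 TPM in sleep-deprived and 13.8 and 15.5 TPM in control files. Neither Srsf7-207 nor Srsf7-206 has a stretch of 31 bases of its own within the gene. The split of reads between them is therefore uncertain. The share call for *Srsf7* sits close to the 10-point line, and the difference was 11.6 points without control replicate 1 and 9.83 points, under the call, without control replicate 2. As a share of TPM it was 9.13 points, also under the call.

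For *Srsf3* the retained intron share was 60.7% and 61.1% in sleep-deprived files, against 50.5% and 50.8% in control files, a difference of 10.3 points [8.12 to 12.4]. It was 9.38 points, under the call, as a share of TPM. The most abundant retained intron transcript, Srsf3-205, keeps no whole intron of the coding transcript but holds 1257 intron bases, and it had 99.1 and 101 TPM in sleep-deprived and 58.9 and 62.1 TPM in control files. It has no stretch of 31 bases of its own within the gene, so its values are uncertain. Srsf3-204, chosen here because it spans the poison exon and after its values were seen, had 49.1 and 48.9 TPM in sleep-deprived and 23.0 and 22 TPM in control files (ratio of reads 1.86 [1.70 to 2.03]).

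*Srsf2* had 43.9% and 44.1% retained intron reads in sleep-deprived files and 31.6% and 31.3% in control files, a difference of 12.5 points [11.0 to 14]. These reads belonged to Srsf2-203, which keeps intron 2, of 1059 bases, downstream of the coding part, and which rose to 343 and 345 TPM in sleep-deprived files, against 146 and 145 TPM in control files (ratio of reads 2.02 [1.92 to 2.13]). A short processed transcript, Srsf2-205, named after its values were seen, was listed with 0 reads in both sleep-deprived files, which allows up to 3 reads, and with 330 and 345 reads in the control files. Counted with the retained introns, it brought the difference down to 7.55 points, which ends the call. Whether the authors' counting used strand is not stated, and 15.5% of the exon bases of *Srsf2* overlap *Mettl23* and 9.74% overlap *Mfsd11* on the opposite strand, so reads of these genes cannot be told apart there. *Mettl23* had 392 reads in sleep-deprived and 245 in control, and *Mfsd11* 963 in sleep-deprived and 743 in control.

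In *Srsf11* retained intron transcripts held most of the reads in both groups, with 68.8% and 70.6% in sleep-deprived files and 53.1% and 53.9% in control files (16.2 points [15.1 to 17.3]). The most abundant of them, Srsf11-213, differed little, with 274 and 287 TPM in sleep-deprived and 206 and 210 TPM in control files (ratio of reads 1.15 [1.11 to 1.20]). Larger ratios were found in other transcripts of the class, which are named here after their values were seen. Srsf11-211, of 521 bases, had 632 and 641 reads in sleep-deprived files, against 29.1 and 24.9 reads in control files (ratio 25.1 [17.1 to 38.3]). Srsf11-208, which runs on from an exon into the intron after it and holds 1988 intron bases, rose to 78.8 and 79.6 TPM in sleep-deprived, against 25.1 and 24.9 TPM in control files (ratio of reads 2.71 [2.44 to 3.01]). Neither these transcripts nor Srsf11-213 keep a whole intron of the coding transcript Srsf11-202, and Srsf11-211 holds 72 intron bases and Srsf11-213 holds 472.

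*Srsf5* had the most retained intron reads in both groups and a small difference in share. Retained intron transcripts took 76.0% of its reads in both sleep-deprived files, against 72.5% and 72.4% in the control files, 3.58 points more [2.77 to 4.41] and below the call. Srsf5-212, which keeps intron 5, had 1588 and 1589 TPM in sleep-deprived and 442 TPM in both control files (ratio of reads 3.07 [3.01 to 3.14]), while the coding transcript Srsf5-201 had 559 and 552 TPM in sleep-deprived and 205 and 208 TPM in control files (ratio of reads 2.30 [2.19 to 2.41]). Both classes of *Srsf5* thus rose past 2-fold. Srsf5-212 has the weakest annotation support level, 5, and no stretch of 31 bases of its own, since Srsf5-207 and Srsf5-209 keep the same intron. A further setting kept only transcripts of support level 1 or 2 or with no level given. There the difference in the *Srsf5* retained intron share, sleep-deprived minus control, was -9.05 points, a turn of direction.

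The remaining genes kept the retained intron share within 10 points. *Srsf1* had 12% and 11.6% in sleep-deprived and 7.29% and 7.43% in control files (4.43 points [3.89 to 4.98]), in Srsf1-203, which had 681 and 662 TPM in sleep-deprived and 328 and 334 TPM in control files but holds no base that the coding transcript lacks. *Tra2b*, a splicing activator, had 11.6% and 11.8% in sleep-deprived and 5.13% and 4.91% in control files (6.70 points [5.01 to 8.48]), and Tra2b-208, which keeps introns 5 and 6, rose to 5.79 and 5.68 TPM in sleep-deprived, against 2.06 and 1.91 TPM in control files (ratio of reads 2.47 [1.86 to 3.30]). *Srsf4* had 14.5% and 14.3% in sleep-deprived and 12.8% and 12% in control files, a difference of 1.99 points whose interval held 0 [-0.32 to 4.34]. *Tra2a* had 8.84% and 8.71% in sleep-deprived and 8.05% and 8.17% in control files, also with 0 inside the interval of the difference [-0.38 to 1.67].

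**Figure D2:**
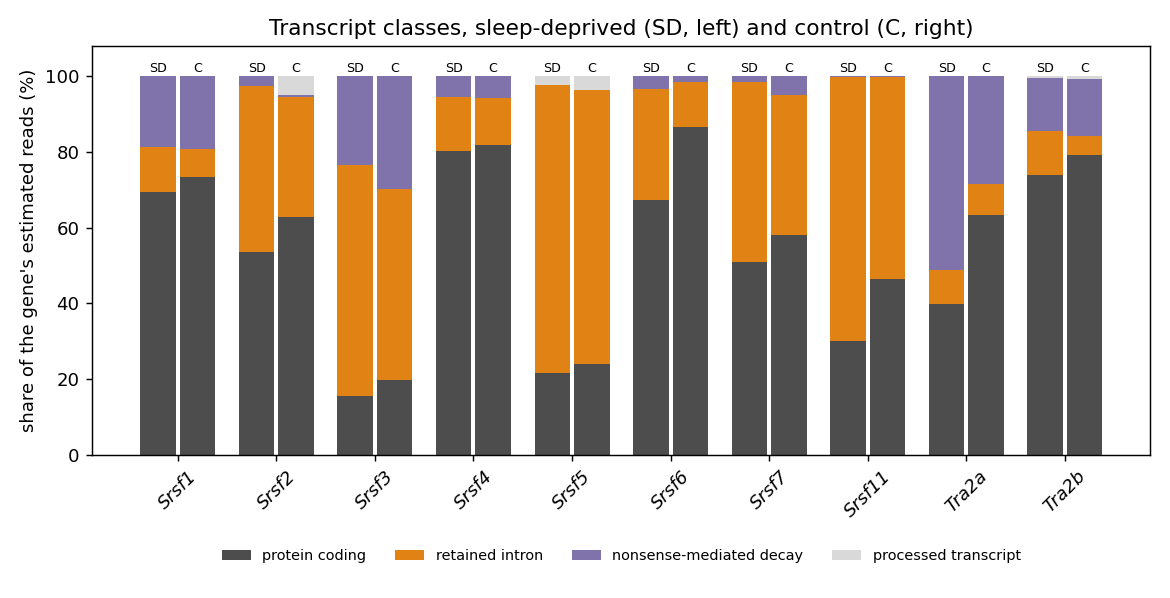
Stacked share of each gene's estimated reads in protein coding, retained intron, NMD and other transcripts, in percent, with the sleep-deprived library (SD) left of control (C), each the mean of 2 files. The retained intron part is larger in the left bar for all 10 genes, most for Srsf6 (29.5% in SD, 12% in C), while in Tra2a the NMD part is the one that differs (51.3% in SD, 28.6% in C).

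NMD transcripts followed no common direction. Their share was above control in 5 genes and below it in 5, and it rose by the call in *Tra2a* alone and fell by the call in none. Over 3218 genes with enough reads the call covered 6.53% (higher) and 8.45% (lower). *Tra2a*, the closest relative of *Tra2b*, had 49.5% and 53.1% of its reads in the NMD class in sleep-deprived files, against 28.3% and 28.8% in control files, a difference of 22.7 points [21 to 24.5]. This class is the single transcript Tra2a-202, with 218 and 234 TPM in sleep-deprived and 85.3 and 87.6 TPM in control files (ratio of reads 2.23 [2.10 to 2.37]). Its poison exon, shown above, gives it 333 stretches of 31 bases found in no other class of the gene. The coding class of *Tra2a* has only 29 such stretches, and the coding transcript Tra2a-201 has none of its own.

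The coding transcripts of *Tra2a* were not higher in sleep-deprived files. Tra2a-201 had 146 and 132 TPM in sleep-deprived and 154 and 139 TPM in control files, and Tra2a-204, named after its values were seen, had 71.8 and 69.2 TPM in sleep-deprived and 74.2 and 89.1 TPM in control files. Together the coding reads had a ratio of 0.78 [0.74 to 0.83]. The NMD transcript therefore held more reads than the coding transcripts in sleep-deprived files and fewer in control files. *Tra2b*, with the homologous arrangement of a poison exon at exon 2, had 14.7% and 13.3% NMD reads in sleep-deprived and 15.2% and 14.9% in control files. Tra2b-206 had 25.7 and 23.3 TPM in sleep-deprived and 23.2 and 22.7 TPM in control files, and its ratio of reads, 0.91 [0.77 to 1.08], straddled 1.

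*Srsf3*, *Srsf6* and *Srsf7*, whose poison exons lie inside the retained introns described above, had different NMD values. In *Srsf6*, Srsf6-201 rose to 45.5 and 47.5 TPM in sleep-deprived files, against 7.08 and 8.14 TPM in control files (ratio of reads 5.23 [4.21 to 6.54]), close to the ratio of the retained intron transcript. Srsf6-201 has annotation support level 5 and made up 3.31% of the reads of the gene in sleep-deprived and 1.40% in control. In *Srsf7*, Srsf7-203 had 5.88 and 6.85 TPM in sleep-deprived and 8.51 and 12.1 TPM in control files (ratio of reads 0.53 [0.40 to 0.70], short of a 2-fold fall), while the transcripts that keep the intron around this exon were higher. In *Srsf3*, Srsf3-201 had 61.1 and 61.3 TPM in sleep-deprived and 47.9 and 50.8 TPM in control files, with a ratio of reads of 1.06 [0.97 to 1.15]. Only 28 stretches of 31 bases in *Srsf6* and 53 in *Srsf7* are found in the NMD class alone, since the retained intron transcripts hold the exon too. Srsf3-201 has no such stretch of its own. The 30 stretches of the *Srsf3* NMD class belong to Srsf3-206, which had no reads, so the values of Srsf3-201 are uncertain.

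*Srsf1* held a large NMD share in both groups, 18.5% and 18.9% in sleep-deprived and 19.3% in both control files. Srsf1-204 had 840 and 856 TPM in sleep-deprived and 695 and 694 TPM in control files, a ratio of reads of 1.04 [1.0 to 1.09]. *Srsf4* had 5.68% and 5.20% NMD reads in sleep-deprived and 5.41% and 6.19% in control files, a difference of -0.37 points whose interval held 0 [-1.94 to 1.22]. *Srsf2* had few NMD reads, 2.70% and 2.38% in sleep-deprived and 0.561% and 0.712% in control files. They came mostly from Srsf2-204, with 198 and 167 reads in sleep-deprived files and 0 and 7.05 in control files (ratio 48.4 [18.6 to 180]). That transcript has no stretch of 31 bases of its own within the gene and shares 71.2% of its stretches with other genes, so its values are uncertain. *Srsf11* and *Srsf5* had almost no NMD reads, with 32.0 in sleep-deprived and 12.7 in control for *Srsf11* and 5.16 in sleep-deprived and 0 in control for *Srsf5*.

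Protein coding reads were called higher in *Srsf5* alone, with a ratio of 2.53 [2.44 to 2.63], and lower in no member, where 5.08% of 7517 genes were called higher and 3.37% lower. *Srsf6* (1.72 [1.66 to 1.77]), *Srsf7* (1.5 [1.42 to 1.59]) and *Srsf2* (1.23 [1.18 to 1.28]) had ratios above 1. *Srsf3* had 1.06 [0.95 to 1.17], *Srsf1* 1.02 [1.0 to 1.04] and *Srsf4* 0.99 [0.91 to 1.07], all near 1. Below 1 were *Tra2b* (0.92 [0.85 to 0.98]), *Tra2a* (0.78, above) and *Srsf11* (0.71 [0.68 to 0.74]). The coding transcript Srsf11-202 had 195 and 182 TPM in sleep-deprived files, against 246 and 240 TPM in control files, although the gene as a whole had more TPM in sleep-deprived files. Setting coding reads beside retained intron reads, the ratio of the retained intron class was the larger in all 10 genes.

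**Figure D3:**
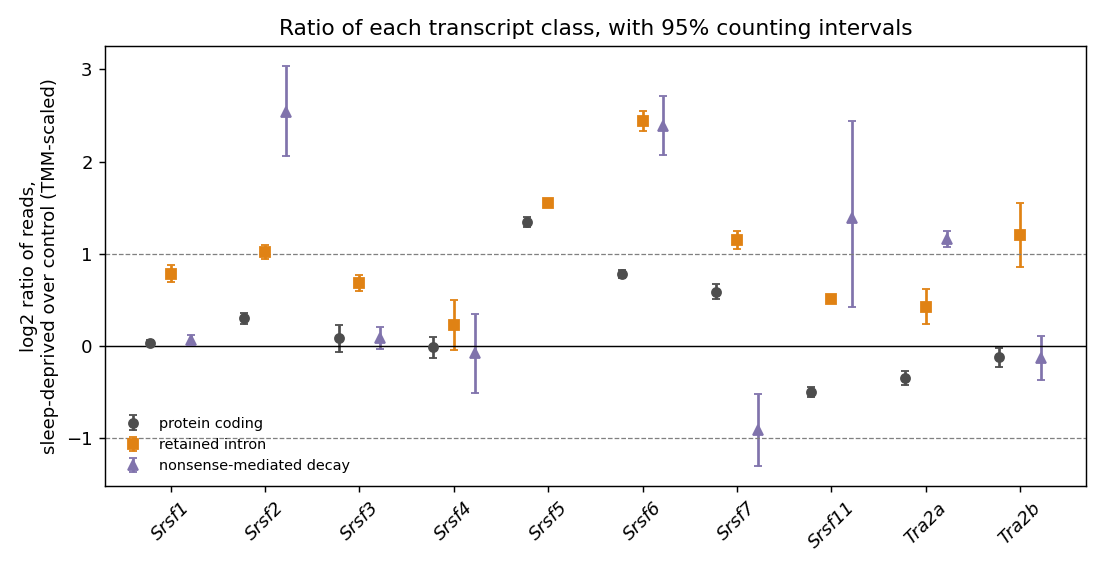
Log2 ratio of TMM-scaled reads, sleep-deprived over control, for the protein coding, retained intron and NMD reads of each SR gene, with 95% counting intervals; dashed lines mark a 2-fold difference, and classes under 20 reads are left out. The retained intron square lies above the coding circle in every gene, while the NMD triangle lies far above it in Srsf2, Srsf6, Srsf11 and Tra2a and far below it in Srsf7.

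As a share of the reads of the gene, the coding class fell by the call in 3 of the 10 genes and rose in none, where 11.7% of 7188 genes were called lower and 8.36% higher. These were *Tra2a*, by 23.4 points, *Srsf6*, by 19.4 points, and *Srsf11*, by 16.3 points. *Srsf2*, with 53.5% in sleep-deprived and 62.9% in control, missed the call at a difference of -9.45 points. By TPM its coding share was 4.54 points higher in sleep-deprived, where Srsf2-205, of 433 bases, took 31.1% and 32.1% of the TPM of the gene in the control files and none in the sleep-deprived files. With retained intron and NMD transcripts added together, 4 of the 10 genes were called higher (*Tra2a*, *Srsf6*, *Srsf11* and *Srsf2*) and none lower. Among 7188 genes 11.3% were called higher and 6.96% lower. In the order of all these genes, *Tra2a* stood at percentile 97.9, *Srsf6* at 96.5, *Srsf11* at 94.8 and *Srsf2* at 93.5, and *Srsf4* stood lowest of the 10 at percentile 62.0. Nothing is read from these places, since the 10 genes were chosen with this comparison known.

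In reads rather than shares, the retained intron class was called higher in 5 of the 10 genes (*Srsf2*, *Srsf5*, *Srsf6*, *Srsf7* and *Tra2b*) and lower in none, where 20% of 3270 genes were called higher and 3.09% lower. For the NMD class 3 of the 8 genes with at least 100 reads over both libraries were called higher (*Srsf2*, *Srsf6* and *Tra2a*) and none lower, where 19.6% of 1166 genes were called higher and 9.52% lower. Of 61 member transcripts with at least 20 reads over both libraries, 18 were called higher and 2 lower, where 21.8% and 12.1% of 37556 transcripts were. Retained intron reads were higher at the median gene too, by 0.43 on the log2 scale over all genes and by 0.90 over the 10. Because of how the 10 were chosen, nothing is read from that difference.

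**Figure D4:**
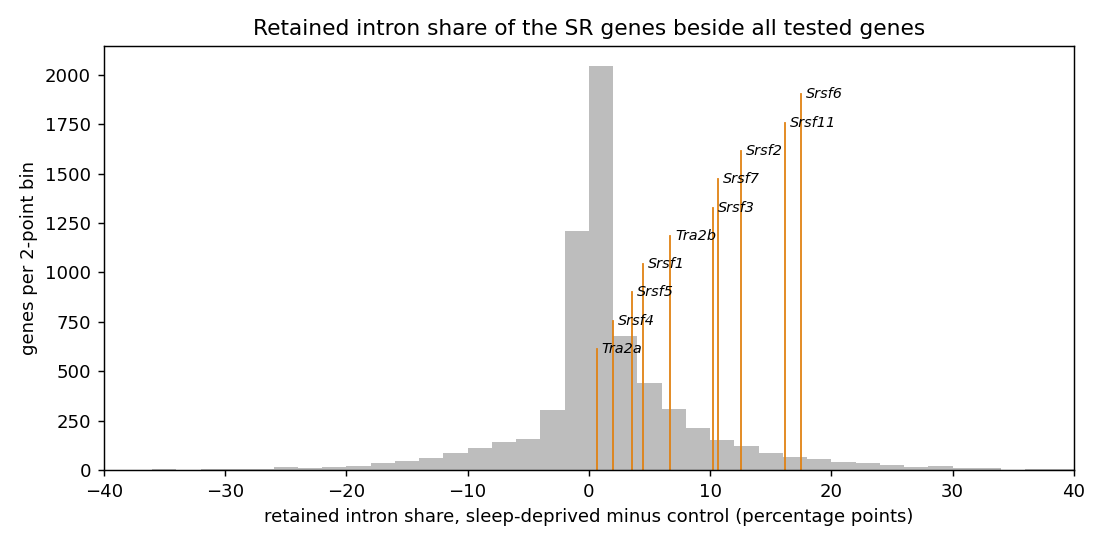
Difference in retained intron share, sleep-deprived minus control, in percentage points: grey bars count the 6592 tested genes per 2-point bin, and the orange lines mark the SR genes (heights only separate the names). All 10 lines lie right of 0, from Tra2a (0.66 points) to Srsf6 (17.5 points), where the median of all genes is 0.55 points and 10 genes lie beyond the axis.

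Other SR genes and the factors that act on SR proteins give the surrounding pathway. Of the 3 other SR genes, none was called by ratio. *Srsf9*, a close relative of *Srsf1*, had 105 CPM in sleep-deprived and 54.4 CPM in control (ratio 1.92 [1.77 to 2.10]), and its combined retained intron and NMD share rose to 30.8% in sleep-deprived, against 18.5% in control. *Srsf10*, a splicing repressor when dephosphorylated and the most abundant of the 3 by mean TPM, had a ratio of 0.80 [0.76 to 0.84]. The 7 kinases that phosphorylate SR proteins gave no call by ratio, with a median ratio of 1.48, and the combined share rose in 4 of 7. These were *Srpk1* (94.5% in sleep-deprived, 60.8% in control), *Srpk2* (15.1% in sleep-deprived, 0.78% in control), *Srpk3* (62.5% in sleep-deprived, 49.7% in control) and *Clk4* (40.6% in sleep-deprived, 29.6% in control). *Clk1*, the most abundant kinase of the list by mean TPM, had 90.2% in sleep-deprived and 85.6% in control, with a ratio of reads of 1.56 [1.53 to 1.60].

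Among 18 SR-related coactivators none was called by ratio (median ratio 1.21). The combined share rose in *Son*, a scaffold of nuclear speckles, with 56.9% in sleep-deprived and 34.5% in control, and lay above control in 15 of 18. *Rsrp1*, the most abundant of this list by mean TPM (2442 TPM in sleep-deprived, 2505 TPM in control), had a ratio of 1.01 [0.99 to 1.02]. The U1 and U2 recognition factors gave no call by ratio in 10 genes (median ratio 1.24). Their combined share rose in *U2af2*, a subunit that binds the tract before the 3′ end of introns, with 46.6% in sleep-deprived and 32.7% in control, and in *Snrpc* (58.0% in sleep-deprived, 44.9% in control), and fell in *Snrpa* (15.8% in sleep-deprived, 32.4% in control), both U1 particle genes. *Snrnp70*, a U1 protein and the most abundant of that list by mean TPM over both libraries (1492 TPM in sleep-deprived, 1093 TPM in control), had a ratio of 1.80 [1.76 to 1.84].

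Of 15 NMD factors *Magohb*, an exon junction protein, was called lower (2.90 CPM in sleep-deprived, 5.85 CPM in control, ratio 0.50 [0.33 to 0.73]). That call was lost without control replicate 2 (ratio 0.503) and without sleep-deprived replicate 2 (ratio 0.519). *Smg1*, the kinase that phosphorylates *Upf1* protein and the most abundant of the list by mean TPM, had a ratio of 1.99 [1.95 to 2.02], just short of the call. The combined share of these factors was tested in 7 of them. It rose in *Upf3a* (30.8% in sleep-deprived, 20.7% in control) and fell in *Smg6* (49.0% in sleep-deprived, 71.3% in control) and *Smg9* (44.9% in sleep-deprived, 62.4% in control). Among other RNA-binding genes with retained intron or NMD transcripts, the combined share rose in *Tia1* (56.8% in sleep-deprived, 31.1% in control), *Tial1* (49.6% in sleep-deprived, 31.7% in control), *Snrpb* (36.6% in sleep-deprived, 23.4% in control) and *Rbm3* (31.2% in sleep-deprived, 15.1% in control). It also rose in *Ddx5*, with 47.3% in sleep-deprived and 30.7% in control. *Hnrnpa2b1*, the most abundant of that list by mean TPM, had 66.0% in sleep-deprived and 71.5% in control, with a ratio of reads of 1.77 [1.73 to 1.80]. Of 7 genes for import and export of SR proteins and messages none was called by ratio, and the combined share fell in *Nxf1*, an export receptor, with 12.8% in sleep-deprived and 31% in control.

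The makeup of the RNA moved with the groups. Markers of microglia, the cells the RiboTag line is meant to mark, were called higher in 12 of 15 genes and summed to 610 CPM in sleep-deprived and 191 CPM in control. Neuron markers summed to 3514 CPM in sleep-deprived and 4122 CPM in control (0 of 11 called), astrocyte markers to 1466 CPM in sleep-deprived and 2343 CPM in control (3 of 10 lower) and oligodendrocyte markers to 2208 CPM in sleep-deprived and 3526 CPM in control (2 of 8 lower). Endothelial markers summed to 139 CPM in sleep-deprived and 144 CPM in control (0 of 6 called). No marker of these lists was at 0 in either library, so both libraries held RNA of several cell types. The neuron sum was above the microglia sum in each library, and the SR gene values cannot be assigned to microglia alone. More cells of a type cannot be told apart from more RNA per cell, and the part of the ribosome pulldown in these sums was not tested. Transcripts from the mitochondrial genome were lower in 7 of 13 genes and summed to 15507 CPM in sleep-deprived and 31492 CPM in control. Retained intron transcripts of all genes took 13.2% of the reads in both sleep-deprived files and 10.6% in both control files. Their part in the values of the SR genes was not tested.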

How the data were processed

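Hippocampal RNA recovered by ribosome pulldown and enriched for polyA, per the labels' protocols, was measured in 4 samples. The authors deposited, per the file headers, an estimated count and a TPM value for each transcript. The submitters' processing notes name Salmon, DESeq2 and mm10. Their versions, the strand setting and the annotation release are not given in the sources here.

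Version-free transcript identifiers were looked up in GENCODE release 21 (GRCm38, the assembly of mm10), which covered 115898 of 116546 (99.4%). The unmatched held 0.339% to 0.341% of the reads in sleep-deprived files and 0.365% to 0.366% in control files and were left out. Chi-square per degree of freedom over genes with at least 20 reads was 0.226 between the sleep-deprived files and 0.335 between the control files, and at least 69.2 between groups, so the files of a group were averaged into 1 library. Over all transcripts it was 5.54 between the sleep-deprived files and 5.82 between the control files. Over member transcripts it was 1.21 between the sleep-deprived files and 1.71 between the control files. The split of reads between transcripts thus varied by more than sampling. The labels call the samples technical replicates of pooled mice, and nothing says that they were separate pulldowns.

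With 1 library per group the quasi-likelihood test of edgeR, its replicate block and the DESeq2 Wald test were not run. Estimated counts were rounded after averaging and then scaled by the TMM method (edgeR 4.0.16, R 4.3.3). Measured genes are those kept by filterByExpr with a minimum count of 10. Intervals are exact conditional (Clopper-Pearson) for ratios and Newcombe for differences in share, at 95%, with a floor of 3 reads (scipy 1.17.1). Shares were computed for genes with at least 100 reads in each library and a coding and a retained intron or NMD transcript. Class reads were compared where the class had at least 100 reads over both libraries. TPM was used for levels between genes and as an alternative, where ratios used a pseudocount of 0.1 TPM. The rules were tested on simulated counts that varied by counting error only. That test cannot show how the rules behave with errors in splitting reads between transcripts.

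All 10 genes are named, with the most abundant protein coding, retained intron and NMD transcript of each by mean TPM. Of each other pathway list the genes called by ratio are named, at most 4 by size of ratio, and the most abundant gene by mean TPM. Genes called by share are named in addition, and member transcripts outside the rule whose values are given are marked as chosen after their values were seen. Marker and mitochondrial lists are given by counts and sums, with no gene named, which departs from the rule. A result of the list of other RNA-binding genes is not reported here. The members and lists were chosen with earlier results of these data known. Stretches of 31 bases and the printed sequences came from the GENCODE transcripts. Protein sequences were not used here. Alternatives were other scalings, thresholds, minimum reads, TPM shares, support levels, classes and each file left out.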

Additional observations from a re-analysis of the deposited data

How the results depend on the processing

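No paired analysis was possible because the 2 files of a group were counted as 1 library, which leaves no residual spread, and so the edgeR and DESeq2 tests were not run either. No called value reversed. The members called higher numbered 2 to 3 by ratio, 4 to 6 by combined share, 3 to 6 by retained intron share and 1 by NMD share over the main setting and the alternatives run. As a share of TPM the members called by retained intron share numbered 3, without *Srsf3* and *Srsf7*, and over all genes the combined share gave 1319 higher and the retained intron share 1189 higher and 482 lower. By summed TPM 1291 genes were higher by ratio and 5 other listed genes were called, and over the 4 settings that leave out a file that last count lay between 1 and 2. At 1.5-fold, 22 other listed genes, 1856 genes higher and 2030 lower were called. With at least 500 reads a gene, 457 genes were higher and 262 lower by combined share, 381 and 172 by retained intron share, and 103 and 139 by NMD share. At 5 points these counts were 1513 and 853, 1311 and 606, and 390 and 431, and 1 member, *Srsf3*, was lower by NMD share. Without a test 48 values of single genes moved and 242 did not. Among those that moved were the *Srsf1* NMD share, -0.62 points by reads and -7.44 by TPM, and the *Tra2a* retained intron share. The latter was -1.77 points with transcripts of support level 1 or 2 or no level given, which keeps Tra2a-203. That setting, which drops Srsf5-212, also gave *Srsf5* 11.5 points more coding share in sleep-deprived and -9.05 points of retained intron share. The signs of the small NMD differences of *Srsf2* (-0.04 points at that setting) and *Srsf4* (0.02 points without control replicate 2) changed too. The cause was not tested. Counts of a few reads, as for NMD transcripts of *Srsf5* and *Srsf11*, limit what can be said of these classes.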
